A study of Mus musculus with 16 samples.

Results

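Interferon-stimulated genes are the genes that cells switch on when type I interferon binds its receptor. A list of 38 of them was followed in mouse bone marrow-derived macrophages on their way to becoming osteoclasts, the cells that resorb bone. A gene was taken where a row of the value table carried its symbol and no other symbol, and where a gene had several such rows the one with the highest mean over the 16 arrays was kept. This gave 34 of the 38 listed genes, out of 22180 genes with such a row. Oas1a, Dtx3l and Gbp2 lie on rows that name a second gene as well, and Ifi44 has no row listed here. All 34 genes passed the filter on dim genes, which left 15526 genes for the tests.

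Cells came from C57BL/6 mice, male and 5 weeks old, and all arrays had macrophage colony-stimulating factor (M-CSF), the growth factor that keeps macrophages alive. In the αKG arm, cells received RANKL, the cytokine that drives osteoclast formation, with 1 mM dimethyl α-ketoglutarate (αKG), a cell-permeable ester of a citric acid cycle intermediate, and were sampled at 0.5, 1, 3, 6, 12, 24, 48 and 72 h. In the DW arm, cells received RANKL with DW, the label's name for the control treatment, and were sampled at 3, 6, 12, 24, 48 and 72 h. At 0 h, 2 arrays had DW and M-CSF without RANKL. The labels name phases of 2 arrays each: fast for 0.5 and 1 h (αKG only), early for 3 and 6 h, intermediate for 12 and 24 h, and late for the arrays at 48 and 72 h. Each condition and time other than 0 h is 1 array, so the spread within a phase includes the passage of time. No label names a separate culture or animal for an array, and the p-values therefore measure only the spread between these arrays. The 0 h arrays differed by at most 0.35 log2 in any of the 34 genes (SD of the difference 0.14). The DW array at 72 h had the lowest mean correlation with the others, 0.928, while the other 15 arrays lay between 0.96 and 0.975. Most calls from late arrays, and those from the 6 shared times together, are given with and without the arrays at 72 h. Late counts by role and at an unadjusted p are from all arrays only. The mean of 8 macrophage markers was 10.99 and 11.01 log2 at 0 h, and all 8 passed the filter. None of the 6 T and NK cell markers did.

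Type I interferon acts through its receptor and the kinases Jak1 and Tyk2, which activate STAT proteins. Stat2 and Irf9 are parts of the complex that binds interferon-stimulated response elements in promoters. RANKL is known to induce a small amount of interferon-β in osteoclast precursors, and signalling through the interferon receptor holds back osteoclast formation. The genes below fall into 8 roles: sensors of viral nucleic acid, signalling factors, the OAS family, the IFIT family, other antiviral effectors, the ISG15 pathway, PARP proteins, and genes whose role is less defined.

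Most of the interferon-stimulated genes had their highest value at 6 or 12 h after RANKL in both arms. This is a description of single arrays, since no gene of the list passed the tests of these phases over 0 h given below. With αKG, the median change from the 0 h mean over the 34 genes was -0.07, -0.12, 0.09, 0.72, 0.64, 0.28, 0.20 and 0.00 log2 at 0.5, 1, 3, 6, 12, 24, 48 and 72 h. With DW it was 0.32, 0.85, 0.79, -0.11, -0.09 and -0.68 log2 at 3, 6, 12, 24, 48 and 72 h. The median over all 15526 genes stayed within 0.02 log2 of 0 at each of these times. With αKG, the highest value of the 6 shared times came at 6 h for 14 of the 34 genes, at 12 h for 15, at 24 h for 4, and for 1 gene at 48 h. With DW, 20 were highest at 6 h, 13 at 12 h and 1 at 3 h. In the αKG arm 15 genes were lowest at 72 h and 12 at 3 h, against 28 and 1 in the DW arm. Of all genes, 21.87% were lowest at 72 h with αKG and 27.52% with DW, and 18.14% and 13.36% were lowest at 3 h. At 6 h, 7 genes stood at least 2-fold above 0 h with αKG and 14 with DW, against 1.17% and 1.34% of all genes. Both arms are set against the same 0 h arrays.

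**Figure D1:**
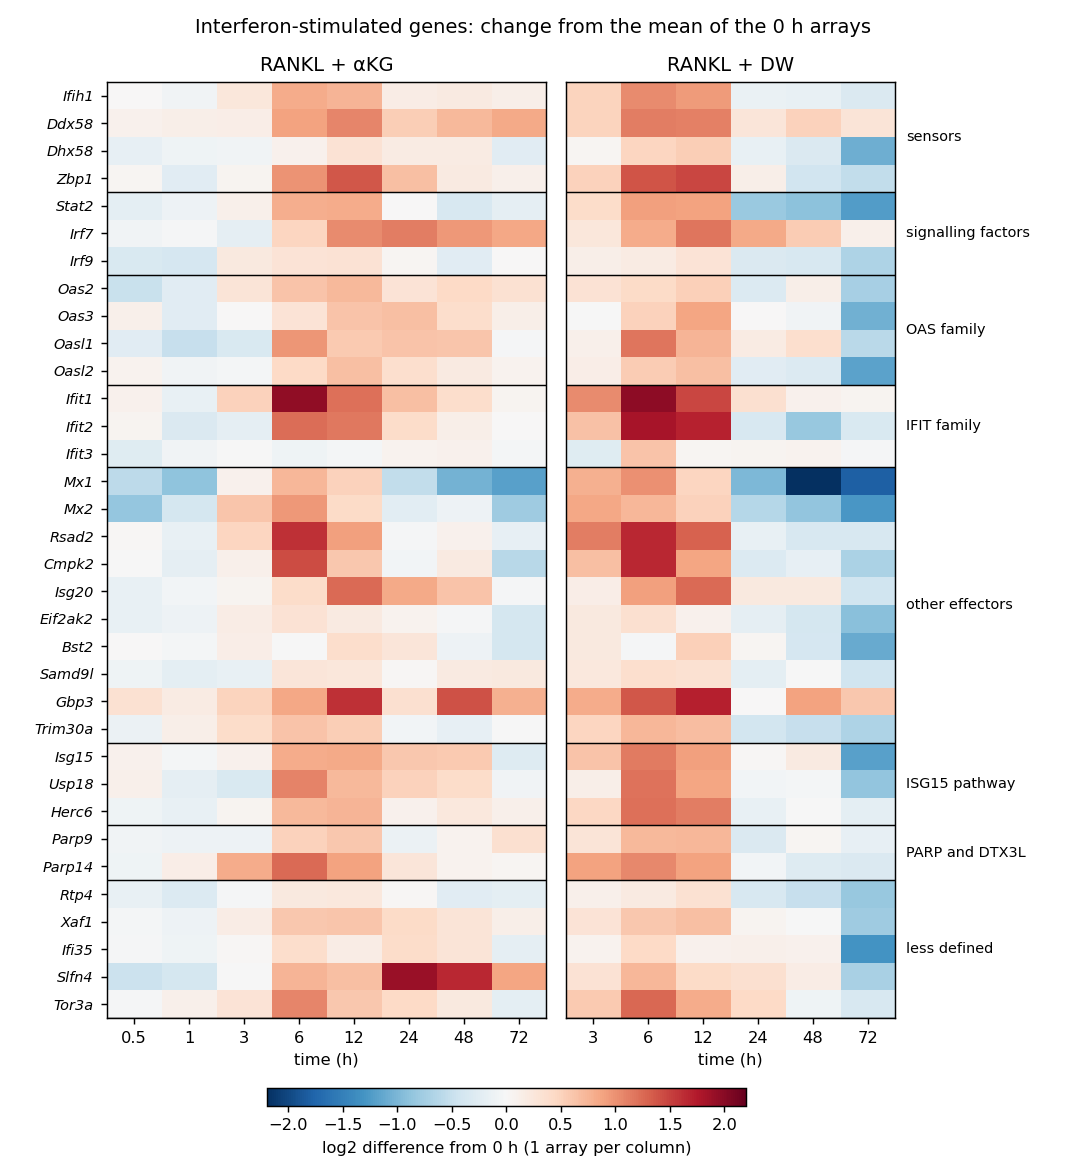
Change of each of the 34 interferon-stimulated genes from the mean of the 0 h arrays, in log2 (colour, red for higher and blue for lower), by time in hours, with the αKG arm on the left and the DW arm on the right. Each column is 1 array. The columns at 6 and 12 h are mostly red in both arms, and at 72 h the DW column is mostly blue, with 4 genes above 0 h, while 17 genes are above 0 h with αKG.

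Promoter sequence was examined because most of these genes had their highest value at 6 or 12 h, although their courses differed. Whether a match goes with a course was not tested. The stretch from 250 bases before the start to the start itself was searched for GAAANNGAAA, a pair of half-sites of the kind found in interferon-stimulated response elements, on both strands and with overlaps counted. RefSeq promoter sequences (GRCm38.p6) were at hand for 24 of the 34 genes. A match was found in 9 of them, or 37.5%: Isg15, Ifit1, Ifit3, Rsad2, Stat2, Oas3, Bst2, Gbp3 and Trim30a. Of all 27025 genes with a promoter sequence, 936 (3.46%) had a match. In a second list of 43 interferon-stimulated genes that are not among the 34, 15 of 36 (41.67%) had one, as did 6 of 13 (46.15%) in a list of interferon-γ targets. The gamma-activated site TTCNNNGAA was found in 4 of the 24 genes (16.67%), in 0 of the 36, in 6 of the 13 (46.15%) and in 8.13% of all genes. A match is a description of the letters and not of binding. Stretches of 60 bases are shown for 6 genes from 5 of the roles, 5′ to 3′ on the gene's strand with every match in capitals, where TTTC at the ends of a match means that it lies on the other strand.
Isg15: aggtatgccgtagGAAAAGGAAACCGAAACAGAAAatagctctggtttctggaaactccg
Ifit1: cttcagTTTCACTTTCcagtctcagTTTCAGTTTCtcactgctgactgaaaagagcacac
Rsad2: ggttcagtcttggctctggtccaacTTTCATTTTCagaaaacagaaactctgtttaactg
Stat2: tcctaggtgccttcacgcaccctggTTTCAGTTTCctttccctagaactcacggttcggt
Oas3: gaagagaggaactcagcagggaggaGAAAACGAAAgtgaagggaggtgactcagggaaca
Bst2: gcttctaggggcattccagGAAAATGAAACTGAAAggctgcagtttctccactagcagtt
The Isg15 stretch (chr4:156200850-156200909, minus strand) holds 3 overlapping matches, the nearest beginning 66 bases before the start. The Ifit1 stretch (chr19:34640779-34640838, plus strand) holds 2 separate matches, the nearer 85 bases before the start. Those of Rsad2 (chr12:26456538-26456597, minus strand), Stat2 (chr10:128270251-128270310, plus strand) and Oas3 (chr5:120777700-120777759, minus strand) hold 1 each, at 120, 222 and 75 bases. The Bst2 stretch (chr8:71537562-71537621, minus strand) holds 2 that overlap, the nearer at 124 bases.

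The first comparison sets early arrays (3 and 6 h with RANKL) against 0 h. All arrays after 0 h had RANKL, so the cytokine and the hours in culture cannot be told apart in any comparison with 0 h. In the αKG arm the ester came with RANKL, so its part cannot be told apart in a comparison with 0 h either. At 0.5 and 1 h there was no DW array to set beside the αKG arm. With αKG, 33 of the 34 genes lay above 0 h, with a median of 0.39 log2. With DW, all 34 did, with a median of 0.62 log2. Ifit1, whose protein binds viral RNA that lacks a normal cap, stood at 8.91 and 10.36 log2 in early αKG arrays and at 9.45 and 10.37 log2 in early DW arrays, against 8.44 and 8.37 log2 at 0 h. Neither arm overlapped 0 h. The fitted differences were 1.23 ± 0.47 log2 with αKG (adjusted p = 0.473, limma) and 1.50 ± 0.47 log2 with DW (adjusted p = 0.361). Rsad2 (viperin), which makes a nucleotide that stops viral polymerases, differed from 0 h by 1.05 log2 with αKG and 1.39 log2 with DW. Its chromosomal neighbour Cmpk2, a nucleotide kinase, differed by 0.77 and 1.16 log2 in the same order.

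No gene of the list passed an adjusted p of 0.05 in either early comparison (limma), where 0.502% of all genes passed with αKG and 0.341% with DW, 0.303% of them upward. Parp14, an ADP-ribosyltransferase, had the lowest adjusted p in both (1.03 ± 0.28 log2, adjusted p = 0.213, with αKG and 0.96 ± 0.28 log2, adjusted p = 0.299, with DW). At an unadjusted p under 0.05, 4 of the 34 genes passed with αKG and 7 with DW, against 8.04% and 6.13% of all genes. A fit of only the early and 0 h arrays called 2 of the 34 genes with αKG and 12 with DW, where 5.11% and 4.99% of all genes were called. In the first hour of RANKL with αKG, 28 of 34 genes lay below 0 h (median -0.10 log2). In the single arrays at 0.5 and 1 h, 12 and 5 of the 34 lay above 0 h, against 46.75% and 49.54% of all genes. None of the 34 genes passed in this phase, as with 0% of all genes. None had an unadjusted p under 0.05, which 3.48% of all genes had.

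Among the sensors, Zbp1, which binds Z-form nucleic acid, stood at 8.63, 9.56, 9.93, 9.23, 8.77 and 8.68 log2 at 3, 6, 12, 24, 48 and 72 h with αKG. With DW it stood at 9.07, 9.94, 10.04, 8.70, 8.14 and 8.03 log2 at the same times, against 8.53 and 8.60 log2 at 0 h. Its peak at 12 h was alike in both arms, and it ended above 0 h with αKG and below it with DW. Ifih1 (MDA5) and Ddx58 (RIG-I), both sensors of viral RNA in the cytosol, peaked at 9.55 and 10.08 log2 with αKG and at 9.77 and 10.14 log2 with DW. Ddx58 stayed above both 0 h values, 8.96 and 9.06 log2, through 72 h, at 9.84 log2 with αKG and 9.30 log2 with DW. Dhx58 (LGP2), a relative that tunes these sensors, peaked at 8.87 log2 with αKG and 9.08 log2 with DW, both at 12 h.

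The signalling factors had unlike courses. Irf7, the transcription factor that amplifies type I interferon production, stood at 9.58, 10.25, 10.81, 10.89, 10.73 and 10.62 log2 from 3 to 72 h with αKG. With DW it stood at 10.02, 10.58, 10.95, 10.61, 10.32 and 9.88 log2, and the 0 h arrays were at 9.63 and 9.91 log2. Its peak came at 24 h with αKG and at 12 h with DW. In intermediate arrays (12 and 24 h) Irf7 had the lowest adjusted p of the list, with 1.08 ± 0.24 log2 over 0 h with αKG (adjusted p = 0.0812, limma) and 1.00 ± 0.24 log2 with DW (adjusted p = 0.109). Stat2, part of the complex that switches these genes on, stood at 9.32, 10.01, 10.02, 9.22, 8.85 and 9.01 log2 with αKG and at 9.62, 10.11, 10.09, 8.40, 8.30 and 7.98 log2 with DW, against 9.22 and 9.20 log2 at 0 h. It was below both 0 h values from 24 h on with DW. Irf9, the DNA-binding part of the same complex, moved less, between 8.68 and 9.25 log2 with αKG over the 6 shared times and between 8.25 and 9.23 log2 with DW.

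No gene of the list passed in intermediate arrays over 0 h, where 0.67% of all genes passed with αKG and 0.779% with DW, 0.451% of them upward. The medians of the list were 0.48 log2 with αKG and 0.37 log2 with DW. The DW median joins arrays of opposite sign, and was -0.11 log2 without the 12 h array and 0.79 log2 without the 24 h array. At an unadjusted p under 0.05, 5 genes passed with αKG and 2 with DW, against 9.42% and 8.95% of all genes. Intermediate over early arrays gave no call in the list either, with 0.0129% of all genes called with αKG and 0% with DW, and with 1 and 2 genes of the list at an unadjusted p under 0.05, which 6.81% and 4.95% of all genes had.

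**Figure D2:**
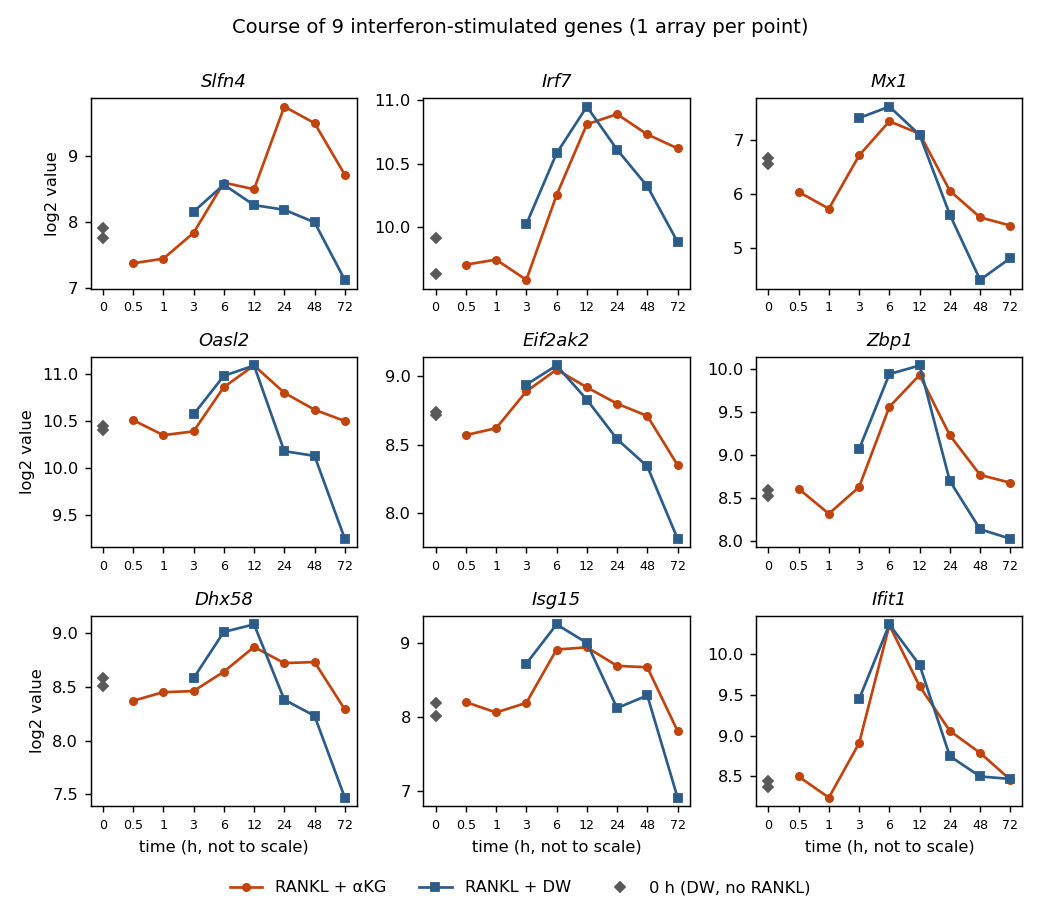
Log2 value of 9 interferon-stimulated genes against time in hours (axis not to scale), with αKG in orange, DW in blue and the 0 h arrays as grey diamonds, 1 array per point. Irf7 with αKG stays above 10.6 log2 from 12 to 72 h and is at 9.88 log2 at 72 h with DW, and the Ifit1 lines meet at 72 h, at 8.46 log2 with αKG and 8.47 log2 with DW.

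The OAS family makes oligoadenylates that activate the nuclease RNase L. Oas3, one of its larger members, stood at 9.43, 9.16 and 8.90 log2 at 24, 48 and 72 h with αKG, and at 8.78, 8.69 and 7.72 log2 with DW. At 0 h it was at 8.74 and 8.81 log2, so all 3 αKG values lay above and the last 2 DW values below. Oasl1, which in mice limits the translation of Irf7, peaked at 6 h in both arms, at 9.77 log2 with αKG and 9.98 log2 with DW.

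The members of the IFIT family had unlike courses. Ifit2 reached 7.22 log2 at 6 h with αKG and 7.81 log2 with DW, against 5.87 and 6.11 log2 at 0 h. Ifit3 stayed between 6.13 and 6.32 log2 with αKG over the 6 shared times and between 5.95 and 6.85 log2 with DW, against 6.11 and 6.34 log2 at 0 h. Ifit1 was back near its 0 h values at 72 h, at 8.46 log2 with αKG and 8.47 log2 with DW.

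Among the other effectors, Mx1 went furthest below its starting level. Mx1 is a dynamin-like GTPase against influenza virus, and in C57BL/6 mice the gene is known to carry a deletion that leaves no working protein. It stood at 6.71, 7.34, 7.11, 6.06, 5.57 and 5.42 log2 with αKG and at 7.40, 7.61, 7.09, 5.62, 4.42 and 4.82 log2 with DW, against 6.55 and 6.67 log2 at 0 h. In both arms it was above 0 h at 3 to 12 h and below it from 24 h on. Mx2, a close relative, ended at 5.67 log2 with αKG and 5.16 log2 with DW, against 6.51 and 6.38 log2 at 0 h. Gbp3, a guanylate-binding GTPase, was high at 12 h (6.97 log2 with αKG, 7.08 log2 with DW) and again at 48 h (6.77 and 6.25 log2), against 5.46 and 5.27 log2 at 0 h. Isg20, an exonuclease that degrades RNA, reached 8.25 log2 at 12 h in both arms, and Bst2 (tetherin), which holds budding virus at the cell surface, peaked there too at 10.99 log2 with αKG and 11.13 log2 with DW.

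In the ISG15 pathway, Isg15, a ubiquitin-like modifier, stood at 8.19, 8.91, 8.94, 8.69, 8.67 and 7.81 log2 with αKG. With DW it stood at 8.72, 9.25, 9.0, 8.12, 8.29 and 6.91 log2, against 8.01 and 8.19 log2 at 0 h. Both arms ended below 0 h, the DW arm further. Usp18, which removes ISG15 and dampens the interferon receptor, peaked at 10.34 log2 with αKG and 10.43 log2 with DW at 6 h, and ended at 9.16 and 8.38 log2, with 9.24 log2 in both 0 h arrays. Herc6, the mouse ligase for ISG15, peaked at 9.27 log2 with αKG and 9.75 log2 with DW.

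Late arrays (48 and 72 h) set the arms apart against the same 0 h arrays. With αKG, 23 of the 34 genes lay above 0 h and 11 below (median 0.14 log2), and none passed, while 1.43% of all genes did. With DW, 5 lay above and 29 below (median -0.42 log2). In the arrays at 48 h alone, 26 lay above and 8 below with αKG, and 12 above and 22 below with DW. At an unadjusted p under 0.05 there were 4 genes with αKG and 9 with DW, against 11.8% and 21.1% of all genes. Mx1 was the 1 gene called, at -1.99 ± 0.43 log2 over 0 h (adjusted p = 0.0199, limma), with 3.3% of all genes called downward and 3.34% upward. Eif2ak2 (PKR), the kinase that stops translation on viral RNA, followed at -0.66 ± 0.19 log2 with DW (adjusted p = 0.0625), and was at -0.20 ± 0.19 log2 with αKG. Rtp4 (-0.68 log2) and Bst2 (-0.74 log2) had adjusted p values of 0.0724 and 0.0752 with DW. Without the DW array at 72 h the median with DW was -0.09 log2 and no gene passed, and without the αKG array at 72 h that with αKG was 0.20 log2, again with no call. Without the DW array at 48 h the DW median was -0.68 log2, and the genes that passed, all lower, did not include Mx1. Without either 0 h array no gene passed. The Mx1 call was thus lost without any 1 of the late DW or 0 h arrays.

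Within an arm, late arrays over intermediate arrays gave no call at the threshold. With αKG 31 of 34 genes lay lower (median -0.35 log2, 0.058% of all genes called) and with DW all 34 did (median -0.73 log2, 1.42% of all genes called). At an unadjusted p under 0.05 there were 2 genes with αKG and 17 with DW, against 5.33% and 13.5% of all genes. Bst2 came closest, at -1.02 ± 0.22 log2 with DW (adjusted p = 0.0506, limma). Without the DW array at 24 h 8 genes passed (1.75% of all genes) and without that at 48 h 7 did (6.6% of all genes), while none passed without that at 12 h or at 72 h.

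The direct comparison of αKG with DW at matched times changed sign during the course. At 3, 6 and 12 h, 31, 27 and 28 of the 34 genes were lower with αKG, with medians of -0.29, -0.15 and -0.10 log2. At 24, 48 and 72 h, 33, 34 and 32 were higher with αKG, with medians of 0.34, 0.37 and 0.61 log2. The share of all genes higher with αKG lay between 46.43% and 53.12% at these 6 times. At 24, 48 and 72 h alike, 31 of the 34 genes were higher with αKG, against 17.9% of all genes. Lower at both 3 and 6 h and higher at both 48 and 72 h were 24 of the 34, against 9.31% of all genes. Irf9 was the 1 gene higher with αKG at all 6 times, by 0.02 to 0.69 log2. Slfn4 was higher with αKG by 0.24 log2 at 12 h and by 1.55, 1.50 and 1.59 log2 at 24, 48 and 72 h, the highest difference of the list at each of these 4 times.

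**Figure D3:**
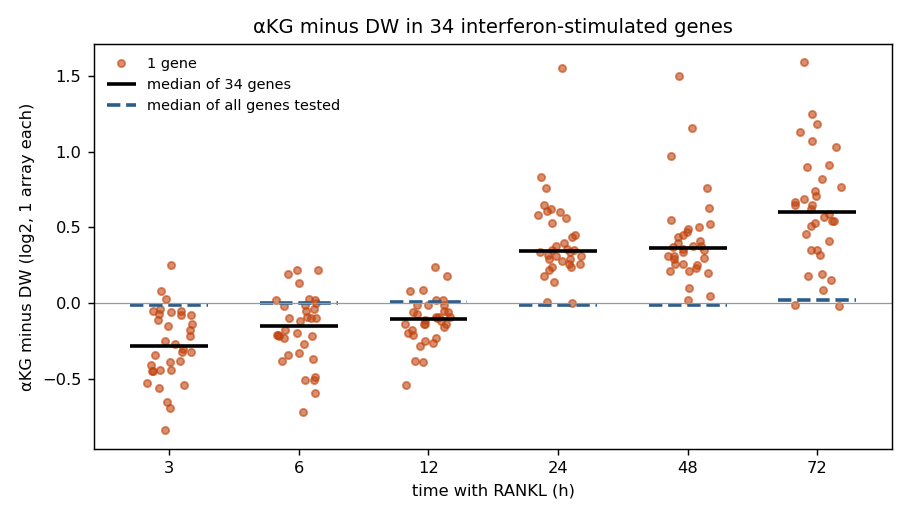
Difference αKG minus DW, in log2, of each of the 34 interferon-stimulated genes (orange points, 1 array per arm and time) at the 6 shared times in hours. Black bars give the median of the 34 genes and dashed blue bars that of all 15526 genes. The black bar lies below 0 at 3, 6 and 12 h and above 0 at 24, 48 and 72 h.

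Over the 6 times together, with time as a block, no gene of the list passed, while 0.399% of all genes did. The median was 0.16 log2, and 0.05 log2 without the pair at 72 h, also with no call. An unadjusted p under 0.05 was found for 5 genes of the list and for 13.3% of all genes, and Oas2 had the lowest adjusted p (0.39 ± 0.12 log2, adjusted p = 0.221, limma). In early arrays no gene passed (0.161% of all genes called). There 31 of 34 genes were lower with αKG, at a median of -0.24 log2, and 10 had an unadjusted p under 0.05, against 8.53% of all genes. Irf7 was at -0.39 ± 0.11 log2 (adjusted p = 0.343), Isg15 at -0.44 ± 0.17 log2, Ifit2 at -0.72 ± 0.27 log2 and Irf9 at 0.11 ± 0.14 log2. In intermediate arrays none passed (0.0966% of all genes called). The median was 0.13 log2, but 0.34 log2 without the pair at 12 h and -0.10 log2 without that at 24 h. Slfn4 was at 0.90 ± 0.24 log2 (adjusted p = 0.289), and 2 genes had an unadjusted p under 0.05, against 9.35% of all genes.

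In late arrays 7 of the 34 genes were higher with αKG at an adjusted p under 0.05 and none was lower, where 2.09% of all genes were called higher and 2.18% lower. The median of the 34 was 0.47 log2, and 28 had an unadjusted p under 0.05, as did 19.2% of all genes. Slfn4, a schlafen family gene of myeloid cells, stood at 9.49 and 8.71 log2 in late αKG arrays, against 7.99 and 7.12 log2 in late DW arrays. The arms did not overlap, and it was higher by 1.54 ± 0.24 log2 with αKG (adjusted p = 0.0112, limma). Its family has close relatives that may share probe sequence, so its value is less certain. Mx1 stood at 5.57 and 5.42 log2 with αKG, against 4.42 and 4.82 log2 with DW, and was higher by 0.88 ± 0.18 log2 (adjusted p = 0.0296). Oasl2, an OAS-like protein, stood at 10.62 and 10.50 log2 with αKG, against 10.13 and 9.25 log2 with DW, a difference of 0.87 ± 0.18 log2 (adjusted p = 0.0307).

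The other 4 genes called were smaller in size. Irf7 stood at 10.73 and 10.62 log2 in late αKG arrays, against 10.32 and 9.88 log2 in late DW arrays (0.57 ± 0.11 log2, adjusted p = 0.028, limma). Zbp1 stood at 8.77 and 8.68 log2 with αKG, against 8.14 and 8.03 log2 with DW (0.64 ± 0.14 log2, adjusted p = 0.0367). Dhx58 stood at 8.73 and 8.29 log2 with αKG, against 8.23 and 7.47 log2 with DW (0.66 ± 0.15 log2, adjusted p = 0.0414). In none of these did the arms overlap. Eif2ak2 stood at 8.71 and 8.35 log2 with αKG, against 8.34 and 7.81 log2 with DW (0.46 ± 0.10 log2, adjusted p = 0.036). Its lower αKG value, at 72 h, was just above the higher DW value, at 48 h.

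Other members came near the threshold or far from it. Stat2 was at 0.79 ± 0.19 log2 (adjusted p = 0.0559), Oas2 at 0.69 log2 (adjusted p = 0.0573) and Bst2 at 0.48 log2 (adjusted p = 0.0579). Oas3 (0.82 log2), Ifi35 (0.67 log2), Ifit2 (0.66 log2), Isg15 (0.64 log2), Xaf1 and Usp18 (0.61 log2 each), Irf9 and Oasl1 (0.40 log2 each) and Rsad2 (0.31 log2) did not pass. At the other end, Ifit1 was at 0.14 log2 and Ifit3 at 0.00 log2. By role, the calls fell on 2 of 4 sensors, 1 of 3 signalling factors, 1 of 4 OAS genes, 2 of 10 other effectors and 1 of 5 less defined genes, and on none of 3 IFIT, 3 ISG15-pathway or 2 PARP genes.

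The number called depended on the time points and on the pairing by time. Without the pair of arrays at 72 h, 2 genes were called (Mx1 and Slfn4) at a median of 0.37 log2, while 2.1% of all genes were called, and all 34 lay above 0. Without the pair at 48 h, 20 genes were called at a median of 0.61 log2, among them 6 of the 7, while 12.1% of all genes were called. Without time as a block none was called, at the same median of 0.47 log2, while 0.0451% of all genes were called.

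**Figure D4:**
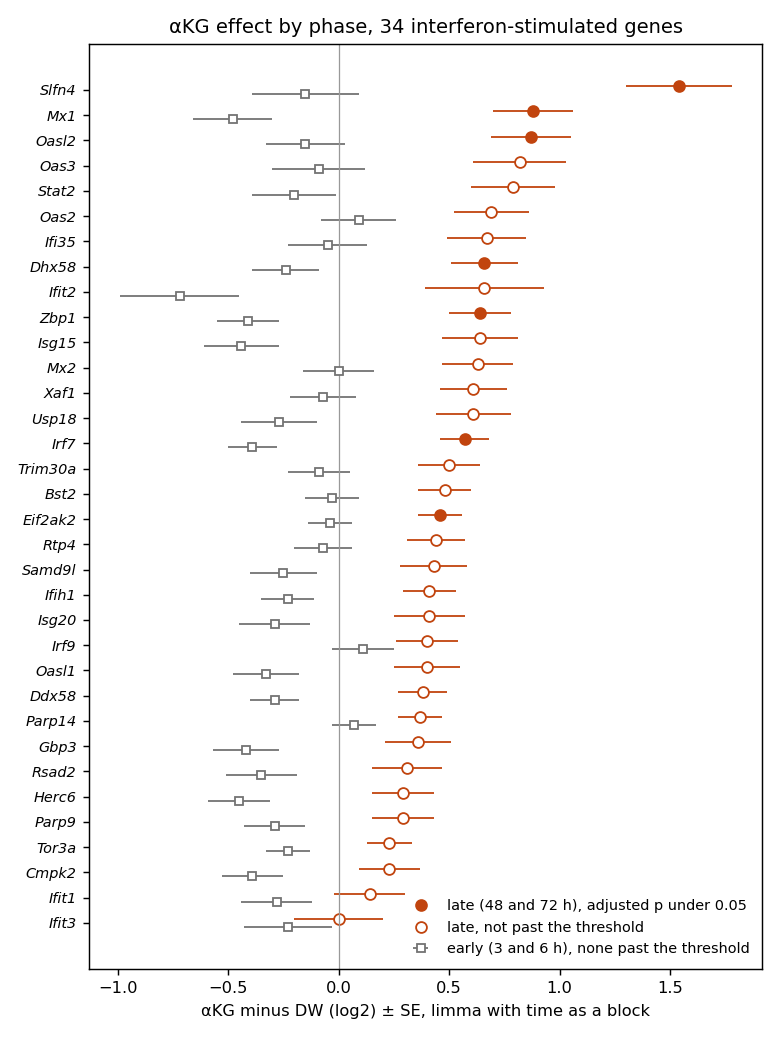
Fitted αKG minus DW difference of each of the 34 interferon-stimulated genes, in log2 with its SE (limma, time as a block), for late arrays (orange circles, filled where the adjusted p is under 0.05) and early arrays (grey squares). The 7 filled circles lie between 0.46 and 1.54 log2, and 31 of the grey squares lie below 0.

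Whether the αKG effect itself differed between phases was tested as the late effect minus the early effect. The median over the 34 genes was 0.68 log2, and all 34 differences were above 0. One gene passed, Irf7, at 0.96 ± 0.16 log2 (adjusted p = 0.0449, limma), where 0.348% of all genes were called upward. The Irf7 difference αKG minus DW was -0.44 and -0.33 log2 at 3 and 6 h, and 0.41 and 0.74 log2 at 48 and 72 h. Mx1 (1.36 ± 0.25 log2, adjusted p = 0.0533), Zbp1 (1.05 ± 0.20 log2, adjusted p = 0.0536), Slfn4 (1.69 log2, adjusted p = 0.0683) and Isg15 (1.08 ± 0.24 log2, adjusted p = 0.0813) were next. At an unadjusted p under 0.05 there were 30 of the 34 genes, against 14.6% of all genes. The Irf7 call was lost without the filter on dim genes (0.302% of all genes called) and without the time block (0% of all genes called). It was also lost without the pair of arrays at 3 h or at 6 h, where the medians of the list were 0.62 and 0.74 log2. Without the pair at 48 h 21 genes passed (9.69% of all genes), and without that at 72 h Mx1 and Irf7 did (0.915% of all genes).

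Genes that make, sense or transmit interferon were looked at beside the targets, in late αKG over late DW arrays. Of all genes, 2.09% were called higher and 2.18% lower in this comparison. None of 9 tested interferon ligands and none of 9 receptors and kinases passed. The ligand list had a median of -0.03 log2, and Ifnb1, the interferon-β gene, did not pass the filter on dim genes. Ifnar1 and Ifnar2, the receptor chains, were at 0.28 and 0.18 log2, and Jak1 and Tyk2 at 0.09 and -0.01 log2. None of 10 regulators passed, with Irf8 at 0.50 ± 0.24 log2 and the feedback inhibitor Socs1 at 0.08 log2. Among 15 sensors and adaptors of interferon production, 4 were higher with αKG: the kinase Ikbke (0.79 ± 0.10 log2, adjusted p = 0.00478, limma), the DNA sensor Cgas (0.93 log2) and the RNA receptors Tlr7 (0.83 log2) and Tlr3 (0.62 log2). The ubiquitin ligase Traf6, which also carries the RANK signal, was lower (-0.68 log2). Without the pair at 72 h, Ikbke (0.91 log2) and Tlr7 (1.03 log2) were still called, Tlr8 (1.05 log2) was called too, and Cgas (0.51 log2), Tlr3 (0.59 log2) and Traf6 (-0.37 log2) were not.

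Of 38 further interferon-stimulated genes tested, 5 were higher with αKG in late arrays, Lgals9 (0.91 log2), Ifi204 (0.81 log2), Ccl5 (0.70 log2), Sp100 (0.65 log2) and Ifitm3 (0.46 log2), and 1 was lower, Ifi27 (-0.95 log2). Their median was 0.37 log2, and 35 lay above 0, while 2.09% of all genes were called higher and 2.18% lower. Without the pair at 72 h the median was 0.25 log2, Lgals9, Ifi204 and Ccl5 were still called, Cxcl10 (1.25 log2) and Ms4a4c (0.94 log2) were called too, and Sp100, Ifitm3 and Ifi27 were not. Of 17 genes known mainly as interferon-γ targets, 1 was higher, the class I regulator Nlrc5 (0.67 log2), and the median was 0.00 log2. Without the pair at 72 h Nlrc5 was not called and Cd274 was, at -0.91 log2. Tlr3, Ccl5, Sp100, Ifitm3 and Ms4a4c lay outside the naming rule and were chosen after their values were seen.

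Cell type markers were looked at in the same comparison, where 2.09% of all genes were called higher and 2.18% lower. In late αKG over late DW arrays, all 8 osteoclast markers were called lower, and their mean level was 8.10 and 9.52 log2 with αKG, against 9.83 and 11.33 log2 with DW. Of 4 inflammatory monocyte markers, 3 were called higher (Ly6c2, F13a1 and Chil3), with means of 5.86 and 5.64 log2 with αKG, against 5.40 and 4.72 log2 with DW. Of 8 macrophage markers, 1 was called higher (Itgam), with means of 10.60 and 10.96 log2 with αKG, against 10.19 and 10.88 log2 with DW. Of 7 neutrophil markers tested, 1 was called higher. The means of all 8 with a row were 5.50 and 4.95 log2 with αKG, against 5.12 and 4.78 log2 with DW. None of 5 plasmacytoid dendritic cell markers tested was called. The means of all 7 with a row were 4.88 and 5.20 log2 with αKG, against 5.09 and 5.13 log2 with DW. Without the pair at 72 h, 7 of the 8 osteoclast markers were called lower, and 1 of 4 monocyte (F13a1), 2 of 8 macrophage and 1 of 7 neutrophil markers higher. These arrays measure bulk RNA, in which fewer cells of a type and less RNA per cell cannot be told apart, and the part of cell composition in the interferon-stimulated genes was not tested.

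The rows shared with a second gene are given as values only. The row of Oas1a and Oas1g stood at 8.32, 8.65, 8.63, 8.55, 8.39 and 8.49 log2 from 3 to 72 h with αKG and at 8.16, 8.60, 8.62, 8.07, 8.14 and 7.41 log2 with DW, against 7.95 and 8.08 log2 at 0 h. It was higher with αKG at each of the 6 times, most at 72 h. The row of Gbp2 and Gbp2b reached 8.77 log2 at 12 h with αKG and 9.06 log2 with DW, against 6.26 and 6.24 log2 at 0 h, and stood at 7.38 log2 at 72 h in both arms. The row of Dtx3l and Parp9 peaked at 8.80 log2 with αKG and 8.94 log2 with DW, both at 12 h, against 7.92 log2 in both 0 h arrays.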

How the data were processed

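The authors hybridised biotin-labelled cDNA from total RNA to 16 one-colour arrays, per the labels' protocols, and deposited 1 normalized log2 value per row and array. The values run from 0.61 to 13.25, from which the log base was inferred, and the medians of the arrays run from 4.84 to 4.93. How rows were summarised, corrected for background and mapped to a build is not given in the sources used here, so no gene could be judged as background or saturated. The small number of arrays limits precision. Of 33793 rows, 23521 carried 1 gene symbol in GEO's platform annotation, 1814 several and 8458 are unnamed here. The lowest 30% of genes by mean (up to 4.34 log2) were left out.

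Phases were compared with limma 3.58.1 in R 4.3.3 (lmFit, eBayes with a trend) in 1 fit of 8 groups, and αKG with DW at the 6 shared times with time as a block, fitted for each phase with 3 residual degrees of freedom. P-values were adjusted by Benjamini-Hochberg over 15526 genes, with a threshold of 0.05, and ± gives the SE unless stated otherwise. Time pairs the arms in the labels. In these arrays, after subtracting each arm's mean, same-time arrays correlated across genes at r = 0.50 to 0.75, each above its value with any other time (at most 0.49). The fits were tested on simulated data. Named were all called members (the 5 highest and 5 lowest where over 8 were called) and 10 anchors such as Irf7, Isg15 and Ifit1. Other members were named as their role was described. From the pathway and marker lists, genes of a list of up to 12, or the 3 highest and 3 lowest of a longer one, could be named. Only some of these were named. Genes and lists were chosen with earlier results of these data known. Alternatives were no filter, quantile normalization, centring, the mean of a gene's rows, fewer groups in the fit, no time block, each array or pair left out, and a line in log2 time.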

Additional observations from a re-analysis of the deposited data

Results flagged for a closer look

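The αKG effect on Irf7 differed between late and early arrays by 0.96 log2 in a test of the difference itself (limma, adjusted p = 0.0449). The difference αKG minus DW was -0.44 and -0.33 log2 at 3 and 6 h, and 0.41 and 0.74 log2 at 48 and 72 h. As given above, the Irf7 call was lost without the filter on dim genes and without the time block. It was also lost without the pair of arrays at 3 h or at 6 h.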

How the results depend on the processing

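The 7 genes called in late αKG over late DW arrays became 0 without the time block and 2 to 20 when a pair of arrays was left out. For the late minus early effect, 1 gene passed, against 0 without the filter on dim genes, 2 with array medians centred, 0 without the time block and 0 to 21 with a pair left out. A line in log2 time, chosen after seeing the data, called 4 (Isg15, Irf7, Zbp1 and Slfn4), and 0.187% of all genes. DW late over 0 h called 0 to 6 with an array left out. DW late over DW intermediate called 1 with medians centred and 0 to 8 with an array left out. With only the compared groups in the fit, DW early over 0 h called 12, αKG early over 0 h 2 and αKG late over 0 h 1. The cause was not tested. Where a group kept 1 array, that array was assumed to vary like the others. Of 4794 values of single genes under the alternatives, 22 lost a call and 76 gained one. The sign differed in 246, with no call on either side, 236 of them with an array or pair left out, most often in αKG over DW intermediate without the pair at 24 h (23 of 34 genes). Centring moved the median of all genes by at most 0.05 log2, and turned the split of all calls in DW late over DW intermediate to 119 higher and 109 lower, against 139 and 81.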

Other observations

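Further interferon targets, and Ikbke of the interferon production list, passed the test in a DW phase over 0 h (limma, adjusted p under 0.05). With αKG, 1 of 38 further interferon-stimulated genes and 1 of 15 production sensors were called higher in early arrays (0.502% of all genes called). In intermediate αKG arrays 2 and 1 were called higher (0.67% of all genes called). Cxcl10 stood at 11.28 and 11.49 log2 in early αKG arrays and 11.76 and 11.85 log2 in early DW arrays. Its 0 h values were 8.16 and 8.48 log2. In early DW arrays 3 of the 38 and 1 of the 15 were called higher, against 0.303% of all genes. The chemokine Cxcl10 was higher by 3.48 log2, Ifi205 by 2.31 log2, the kinase Ikbke by 1.65 log2 and the chemokine Ccl5 by 1.33 log2. In intermediate DW arrays 2 of the 38 and 1 of 17 interferon-γ targets were called higher, against 0.451% of all genes. Cxcl9 was higher by 2.35 log2, Ifi205 by 2.19 log2 and Ccl5 by 2.0 log2. The early and intermediate DW calls are given from all arrays only. In late DW arrays Ifi27 (1.57 log2) and the peptide transporter gene Tap2 (0.68 log2) were higher, where 3.34% of all genes were called higher. Lgals9, the galectin that was higher with αKG in late arrays, changed by -1.26 log2, where 3.3% of all genes were called lower. Without the DW array at 72 h, Lgals9 was still called (-1.05 log2), and Ifi27 (0.99 log2, adjusted p = 0.0545) and Tap2 (0.64 log2, adjusted p = 0.175) were not.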
